A study of Mus musculus with 12 samples.

Results

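Neuropeptides are made as precursor proteins, cut to short active peptides in the secretory pathway, stored in dense-core vesicles and released to act mostly on G-protein-coupled receptors. In the forebrain many of them mark particular neurons, above all GABAergic interneurons and the projection neurons of striatum, amygdala and hypothalamus. The genes described here were 10 neuropeptide genes: Npy (neuropeptide Y), Sst (somatostatin), Tac1 (precursor of substance P and neurokinin A), Tac2 (precursor of neurokinin B), Penk (proenkephalin), Pdyn (prodynorphin), Cck (cholecystokinin), Vip (vasoactive intestinal peptide), Crh (corticotropin-releasing hormone) and Iapp (islet amyloid polypeptide, or amylin). They were found on the arrays by the gene name that the scanner files give each probe, which gave 11 probes of 55681. Npy, Tac2 and Iapp were on the list in part because of their difference between cultures with and without a WNT agonist in these same arrays, so that difference is given for them as a description, with no test.

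Neurons derived from mouse embryonic stem cells were measured at day 16 of differentiation in 4 culture groups, 2 arrays each, and E15 mouse cortex, hippocampus, ventral telencephalon and midbrain were measured on 1 array each. All cultures were male cells of 129/Ola background and received the WNT inhibitor 53AH (2.5 μM) and the BMP inhibitor LDN193189 (0.25 μM) from day 0. WiBi_0-11 kept both inhibitors to day 11 and WiBi_0-16 to day 16. In CHIR_8-16 they were replaced by CHIR, a GSK3 inhibitor that activates WNT signalling, at 3 μM from day 8 to day 16. In CHIR_11-16 the agonist ran from day 11 to day 16 at a dose the labels do not state. The labels call the WiBi 11 protocol isocortical and the CHIR8 protocol hippocampal, and the culture steps they list add up to a medium change a day earlier than the day 8 of the group's name. The embryos were Sv129s6 of both sexes. RNA from 3 experiments was combined in every sample. Whether the 2 replicates of a group came from separate cultures is not stated, so the p-values rest on the spread of these samples alone, and that spread may be technical.

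Signals are given as a percentage of the 75th percentile of each array's spots, so that 100 is the 75th percentile. They can be compared between arrays for 1 probe, not between probes. A spot is "well above background" by the scanner software's own test, and 59.06% to 71.18% of an array's spots were. The first replicates of all culture groups shared slide 2 and the second replicates shared slide 3. Between the slides 8774 of 25536 genes (34.4%) differed by limma at an adjusted p under 0.05, so p-values are reported from a fit without and a fit with a slide term (the slide block). All 9 neuropeptide genes that could be tested had a higher mean on slide 3, and 3 of them passed: Sst by log2 1.72 (adjusted p = 0.0070), Pdyn by 0.75 (adjusted p = 0.0055) and Tac2 by 0.58 (adjusted p = 0.014). All 10 pan-neuronal markers were well above background on every array. The number of arrays limits the precision of every value. In RNA from whole cultures and tissues, fewer cells of a type and less RNA per cell cannot be told apart.

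The probe for Npy is the only neuropeptide probe placed across an intron: the files place its 60 bases on mm9 chr6:49773743-49777505, plus strand, a span of 3763 bases. It lies in the coding sequence for the Npy precursor, and is shown because the agonist comparison turns on it; capitals are not used in it.

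Npy probe: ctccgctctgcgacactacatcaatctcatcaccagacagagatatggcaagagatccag

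The other probes are each placed on 60 contiguous bases. Sst was measured by 10 spots per array and the others by 1. Pdyn had 2 probes, of which the one at mm9 chr2:129513968-129514027 was not well above background on any of the 12 arrays, and the values below come from the one at chr2:129512323-129512382. The Vip probe (chr10:4699238-4699297) is placed on the strand opposite to the RefSeq gene, as were 153 of 22284 probes that could be compared (0.687%), so whether it reads the Vip transcript is not known.

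RefSeq promoter sequence (GRCm38.p6) was at hand for 8 of the 10 genes. The cyclic AMP response element (CRE), the site through which CREB acts on many neuropeptide genes, was searched as TGACGTCA, which reads the same on both strands, and its shorter form as TGACG or CGTCA, which also counts within a full site. The site of the TCF/LEF factors that act at the end of the WNT pathway was searched as CTTTGAT or ATCAAAG. Windows ran from 250 bases before to 50 after the start site. The full CRE was found in Sst alone, against 1.79% of 32851 promoters, and the shorter form in Sst, Tac1, Cck and Vip, against 20.81%. The TCF/LEF letters were found in Tac2 alone, against 3.729%. A match is a description of the letters, not evidence of a bound site. The last 120 bases before the start site are shown for the 3 genes picked for their difference with agonist and for Sst, with CRE and TCF/LEF letters in capitals; the Npy and Iapp windows hold neither.

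Npy (chr6:49822590-49822709, plus strand): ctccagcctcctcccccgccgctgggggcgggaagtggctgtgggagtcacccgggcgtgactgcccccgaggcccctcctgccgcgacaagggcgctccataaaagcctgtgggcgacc
Tac2 (chr10:127724358-127724477, plus strand): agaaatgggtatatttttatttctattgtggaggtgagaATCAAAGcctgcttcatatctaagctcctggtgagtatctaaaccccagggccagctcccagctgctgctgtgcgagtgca
Iapp (chr6:142298305-142298424, plus strand): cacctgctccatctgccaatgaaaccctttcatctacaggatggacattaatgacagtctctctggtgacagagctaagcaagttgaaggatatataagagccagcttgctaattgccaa
Sst (chr16:23890845-23890964, minus strand): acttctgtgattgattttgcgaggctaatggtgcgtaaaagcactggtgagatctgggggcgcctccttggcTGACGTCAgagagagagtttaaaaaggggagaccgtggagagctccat

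Of the 10 genes, 9 passed the filter, for which some culture group needed both of its arrays well above background. Vip did not: its signal was 0.22 to 0.67 in the 8 cultures, never well above background. Iapp passed only through the 2 agonist groups and Crh only through CHIR_11-16, so that counts over the 9 genes are descriptions of genes partly selected by level.

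**Figure D1:**
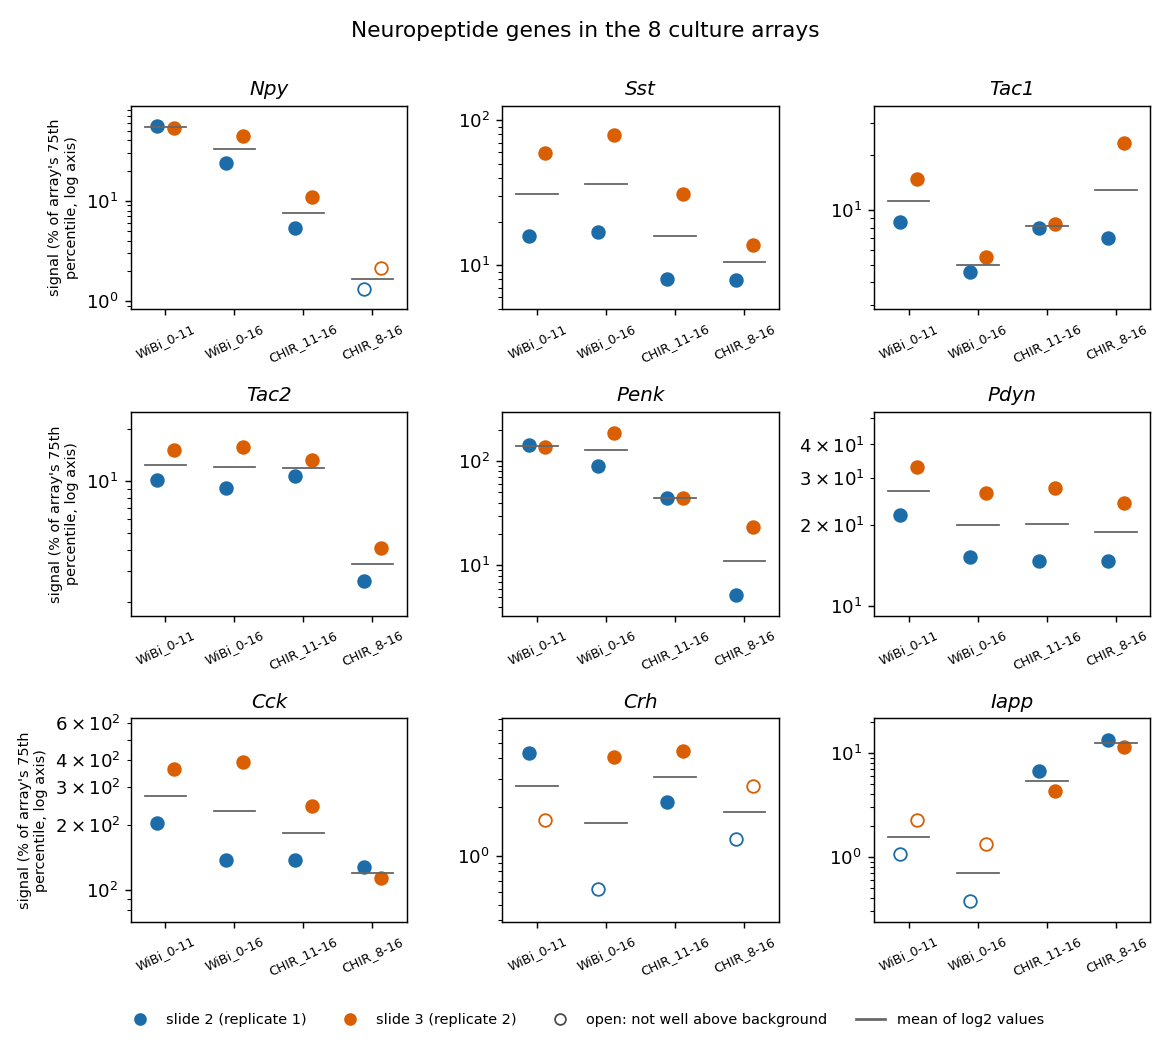
Signal of the 9 genes on each culture array, as a percentage of the array's 75th percentile on a log axis, with replicate 1 (slide 2) in blue, replicate 2 (slide 3) in orange, open circles for arrays not well above background and grey lines for the mean of the log2 values. The Npy values step down from WiBi_0-11 to CHIR_8-16, Iapp is filled only in the 2 CHIR groups, and the Tac2 values of CHIR_8-16 lie below all others.

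Npy, an inhibitory transmitter peptide of cortical, hippocampal and striatal interneurons, was highest in the cultures kept on inhibitors and lowest with the longest agonist exposure. Its signal was 55.5 and 53.9 in WiBi_0-11, 24.0 and 44.2 in WiBi_0-16, 5.34 and 10.8 in CHIR_11-16, and 1.32 and 2.13 in CHIR_8-16 (replicates 1 and 2). Both CHIR_8-16 values were not well above background. No 2 neighbouring groups in this order overlapped. Agonist cultures were lower than inhibitor cultures by a log2 of 3.56 on average (SE 0.64, n = 4 against 4; log2 -3.78 within slide 2 and -3.35 within slide 3). With dim arrays set to the lowest signal well above background this was at least 9.86-fold lower. Such bounds ("at least") hold for this scaling and background only, and other treatments can give smaller differences. The difference was smaller, log2 -2.05, when background was modelled with normexp, which adds an offset to every spot. Between CHIR_8-16 and WiBi_0-11, the hippocampal and the isocortical protocol, Npy was at least 22.7-fold lower in this scaling (log2 -5.03, SE 0.47, n = 2 against 2). The difference was smaller with normexp (log2 -2.76) and in the authors' deposited table (log2 -4.15).

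Penk, whose enkephalins act on delta and mu opioid receptors and which marks striatal projection neurons, followed the same order of groups but was not chosen for it. Its signal was 143 and 138 in WiBi_0-11, 89.8 and 184 in WiBi_0-16, 44.5 and 44.0 in CHIR_11-16, and 5.26 and 23.5 in CHIR_8-16, well above background on all 8 arrays. Every agonist array lay below every inhibitor array, as for 5.56% of the 25536 genes. The mean difference was log2 -2.60 (6.05-fold, SE 0.66; -2.89 and -2.31 within slides 2 and 3), and it did not pass in limma (adjusted p = 0.12 without and 0.063 with slide as a block). Its unadjusted p was 0.0043, below 0.05 as for 15.3% of genes. With the slide block and a further change it passed in 3 fits: normexp background (adjusted p = 0.030), a trended prior variance (0.029) and 1 mean per culture group (0.042). Over all genes these 3 fits called 1222, 2179 and 1265, more than the 826 of 25536 with the block alone. Penk passed in 0 of the 8 blocked fits that left out an array (adjusted p 0.081 to 0.163 by limma), each of which called 0 to 3 genes. CHIR_8-16 against WiBi_0-11 gave log2 -3.66 (12.6-fold, SE 0.72; adjusted p = 0.25, or 0.071 with the block), with -4.76 on slide 2 and -2.55 on slide 3.

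Sst, a peptide of dendrite-targeting interneurons, differed more between slides (log2 1.72) than between agonist and inhibitor cultures. Its signal was 16.0 and 59.6 in WiBi_0-11, 16.9 and 78.5 in WiBi_0-16, 8.04 and 31.1 in CHIR_11-16, and 7.94 and 13.9 in CHIR_8-16. The 4 slide 3 values of the groups exceeded their slide 2 partners each time, and agonist and inhibitor arrays overlapped. The mean difference was log2 -1.38 (SE 0.66; -1.04 within slide 2 and -1.72 within slide 3). This did not pass without the block (adjusted p = 0.38) and passed with it (SE 0.27, adjusted p = 0.047). Leaving out any of the 8 arrays ended the blocked call (adjusted p 0.080 to 0.135 by limma), and so did median scaling (0.066), quantile normalization (0.059) or the authors' deposited table (0.059) with the block. The call held with the block joined to normexp background (adjusted p = 0.047 by limma), a trended prior variance (0.020) or 1 mean per culture group (0.049). The blocked leave-one-out fits called 0 to 3 genes each and blocked median scaling 85, so these losses are not particular to Sst.

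Crh is left out of the counts of tests between agonist and inhibitor cultures, since it passed the filter only through an agonist group. Of the other 5 neuropeptide genes tested there, 0 passed without the slide block, where 0.00783% of all genes did (1 of the 5 had an unadjusted p under 0.05, Penk), and 1 passed with it, Sst, where 3.23% of all genes did. At an unadjusted p under 0.05 there were 3 of the 5 with the block, against 22.5% of all genes. Of all 9 genes 6 were lower on both slides, as were 33.8% of all genes, and 3 were higher on both, as were 34.6%. Their median was log2 -0.76, and that of all genes 0.00, which is no independent finding, since 3 of the 9 were picked on this contrast. Cck, the peptide of a class of basket interneurons and also made by pyramidal neurons, was lower on both slides (log2 -0.76, SE 0.39; adjusted p = 0.42, or 0.18 with the block). Its signal was 205 and 364 in WiBi_0-11, 137 and 392 in WiBi_0-16, 137 and 246 in CHIR_11-16 and 127 and 113 in CHIR_8-16. The CHIR_8-16 pair lay below all others, and it was the only group in which the slide 3 array was the dimmer for Cck.

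Pdyn, the precursor of the dynorphins that act on kappa opioid receptors, differed less between groups than between slides. Its signal was 21.9 and 33.0 in WiBi_0-11, 15.2 and 26.3 in WiBi_0-16, 14.8 and 27.5 in CHIR_11-16, and 14.7 and 24.2 in CHIR_8-16. Agonist and inhibitor cultures differed by log2 -0.25 (SE 0.30, adjusted p = 0.86).

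Tac2 was lower in CHIR_8-16 alone. Its signal was 10.1 and 15.2 in WiBi_0-11, 9.17 and 15.7 in WiBi_0-16, 10.72 and 13.3 in CHIR_11-16, but 2.64 and 4.10 in CHIR_8-16, well above background throughout. The other 3 groups overlapped each other. The mean difference between agonist and inhibitor cultures, log2 -0.96, averages 1 agonist group that was low and 1 that was not (-0.37 with normexp). CHIR_8-16 was 3.77-fold lower than WiBi_0-11 (log2 -1.91, SE 0.38; -1.94 and -1.89 within the slides; -0.82 with normexp).

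Tac1, whose substance P acts on the receptor NK1, passed in none of the 4 comparisons of cultures. Its signal was 8.60 and 14.8 in WiBi_0-11, 4.53 and 5.48 in WiBi_0-16, 7.92 and 8.42 in CHIR_11-16, and 7.05 and 23.4 in CHIR_8-16. The last value, replicate 2 of CHIR_8-16, stands apart from the other agonist arrays. Agonist minus inhibitor was log2 0.45 (SE 0.49, limma adjusted p = 0.82, with 0.26 and 0.64 within slides 2 and 3). Over the 32 alternatives run it ranged from 0.054, without CHIR_8-16 replicate 2, to 0.78. Several of these, the slide block among them, cannot change the estimate, so their number says nothing about its direction. CHIR_8-16 minus WiBi_0-11 was 0.19 and turned to -0.68 without CHIR_8-16 replicate 2 and to -0.20 without WiBi_0-11 replicate 1.

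Iapp, a peptide best known from pancreatic beta cells and also found in some neurons, was detected in the agonist groups only. Its signal was 13.5 and 11.5 in CHIR_8-16 and 6.75 and 4.37 in CHIR_11-16, well above background on all 4 arrays. It was 1.06 and 2.27 in WiBi_0-11 and 0.37 and 1.33 in WiBi_0-16, not well above background on any. Agonist and inhibitor arrays did not overlap; 6.72% of all genes did the same in this direction, and since Iapp was picked on this contrast nothing is read from that share. In the main scaling the agonist cultures were at least 3.57-fold higher (log2 2.98 as measured, SE 0.58, with 3.93 and 2.03 within slides 2 and 3). The log2 difference was 0.84 with normexp and 1.94 in the authors' deposited table. CHIR_8-16 was at least 5.07-fold above WiBi_0-11 in the main scaling. Of 8 islet and endocrine genes listed beside it, 5 were measured, and their summed signal was 400 to 439 in CHIR_8-16, 375 to 421 in CHIR_11-16, 375 to 452 in WiBi_0-11 and 476 to 544 in WiBi_0-16, while Pdx1, Ucn3 and Slc30a8 did not pass the filter. The Mafa probe carries most of these sums, with 356 of the 400 in CHIR_8-16 replicate 1. The insulin genes Ins1 (3.18 to 8.10) and Ins2 (28.3 to 47.0) were well above background in all 8 cultures, where agonist and inhibitor arrays overlapped for both, and the part of islet-like cells in the Iapp signal was not tested. Gcg, the glucagon precursor, was lower in CHIR_8-16 than in WiBi_0-11, at least 6.02-fold (log2 -3.05; adjusted p = 0.16 without and 0.039 with the block), the direction opposite to Iapp.

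Crh, which starts the stress response of the pituitary and is also made by cortical interneurons, was at the edge of detection. Its signal ran from 0.62 to 4.42, with 4 of 8 culture arrays well above background, and its direction between agonist and inhibitor cultures (log2 0.20, SE 0.66) turned to -0.21 when dim values were set to the lowest signal well above background.

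**Figure D2:**
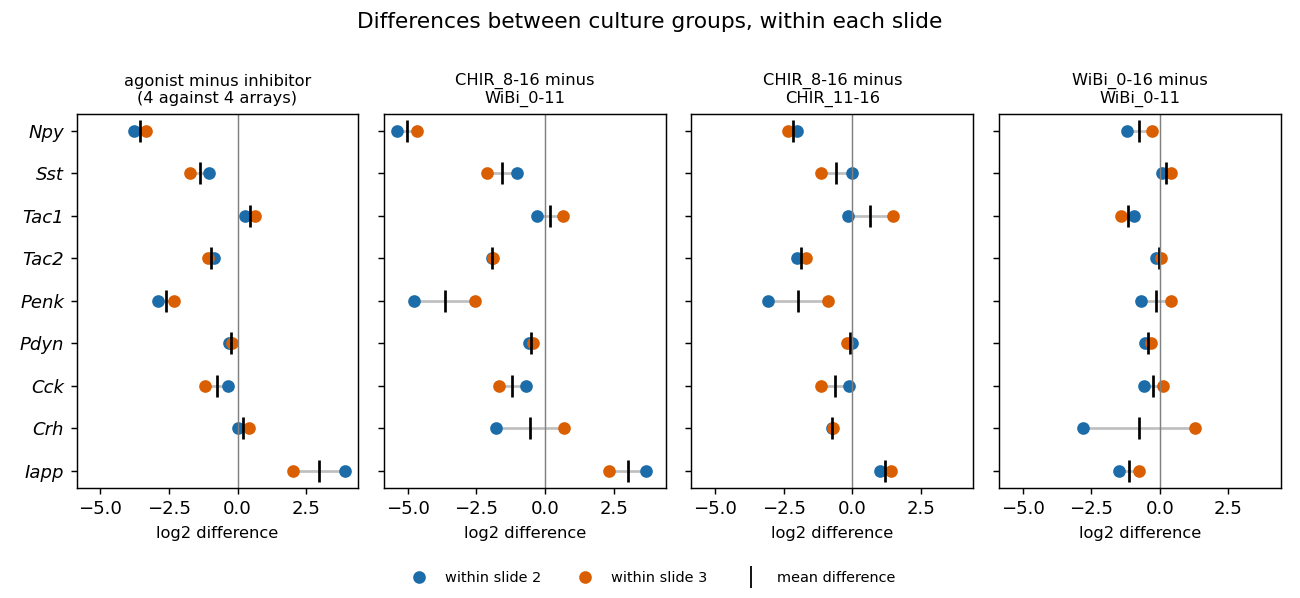
Log2 differences of the 9 genes in 4 comparisons, within slide 2 (blue), within slide 3 (orange) and on average (black bar); 0 means no difference. Npy, Penk and Tac2 lie left of 0 on both slides in the 3 comparisons that involve an agonist group, Iapp lies right of 0, and Crh and Tac1 straddle 0 in CHIR_8-16 minus WiBi_0-11.

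The hippocampal against the isocortical protocol, CHIR_8-16 minus WiBi_0-11, shares its arrays with the agonist comparison and is no separate support for it. Of the 9 genes, 5 lay below WiBi_0-11 on every array (Npy, Penk, Tac2, Sst and Cck), as did 17.9% of all genes, and 1 above (Iapp), as did 17.7%. On both slides 6 were lower (28.7% of all genes) and 1 was higher (36.9%). The 6 genes that were tested gave 0 calls without the block, where 0.0117% of genes passed, and 0 with it, where 0.309% passed. At an unadjusted p under 0.05 there was 1 without and 4 with the block, against 9.62% and 22.1% of all genes. Sst differed by log2 -1.56 (adjusted p = 0.74, or 0.11 with the block), Cck by -1.19 (0.60 or 0.17) and Pdyn by -0.51 (0.85 or 0.13). The median over the 9 genes was log2 -1.19, and over all genes 0.05. This median and the counts over the 9 genes include Npy, Tac2 and Iapp, picked in part on their agonist difference in these arrays, so nothing is read from them.

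CHIR_8-16 was set against CHIR_11-16, where the agonist started on day 8 or day 11. The inhibitors ended on those same days, and the agonist ran to day 16 in both groups. The start of the agonist, its length and the length of the inhibitors thus cannot be told apart, and the dose may differ as well. Npy, Tac2 and Iapp were picked on a contrast that holds these same arrays, so their differences are described here with no test. In the main scaling Npy was at least 3.15-fold lower with the earlier start (log2 -2.18, SE 0.47, with -2.02 and -2.34 within the slides). Tac2 was 3.63-fold lower (log2 -1.86, SE 0.38, with -2.02 and -1.70 within the slides). With normexp background the differences were -0.72 and -0.84. The difference of Penk was log2 -1.99 (SE 0.72; -3.08 on slide 2 and -0.90 on slide 3; adjusted p = 1.0, or 0.34 with the block). Iapp was higher by log2 1.20 (SE 0.67; 1.004 and 1.40 within the slides). Over the 9 genes, 4 lay below on every array (14.8% of all genes did) and 1 above (11.3%), 7 were lower on both slides (27.4%) and 1 higher on both (33.4%), counts that include the 3 picked genes and from which nothing is read. Of the others, Crh aside, 0 passed in limma, where 0% of all genes passed without and 0.00783% with the block; at an unadjusted p under 0.05 there was 1 in each fit, Penk, against 3.82% and 11.6% of all genes.

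Keeping the inhibitors to day 16 in place of day 11 gave differences that did not pass. Npy was lower in WiBi_0-16 (log2 -0.75, SE 0.47; adjusted p = 1.0, or 0.45 with the block) and so was Tac1 (log2 -1.18, SE 0.58; adjusted p = 1.0, or 0.44), and for these 2 the groups did not overlap, as for 16.4% of genes in that direction. Over the 9 genes 4 were lower on both slides (30.2% of all genes) and 1 higher (31.9%). Penk differed by -0.13, Cck by -0.23, Tac2 by -0.05 and Sst by 0.24, with the direction of all 4 depending on which array was left out. Of the 9 genes 0 passed in limma, where 0% of genes passed without and 0.0117% with the block. At an unadjusted p under 0.05 there were 0 without and 3 with it, against 2.62% and 10.8% of all genes.

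The E15 tissues gave each gene an embryonic reference, with 1 array per tissue and so no spread. Ventral telencephalon, the source of forebrain interneurons and striatal neurons, held the highest signal of 4 genes. Tac1 was 1236 there and 1035 in midbrain, but 11.2 in cortex and 15.8 in hippocampus, a 110-fold range between ventral telencephalon and cortex. Sst was 4237 in ventral telencephalon, 2794 in midbrain, 622 in cortex and 423 in hippocampus. Penk was 711 and 642 in ventral telencephalon and midbrain against 34.6 in cortex and 53.6 in hippocampus. Npy was 794 in ventral telencephalon and 703 in cortex, 312 in midbrain and 141 in hippocampus, so that cortex exceeded hippocampus 4.99-fold.

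Midbrain was highest for 3 genes. Pdyn was 213 there, 203 in ventral telencephalon, 15.9 in hippocampus and 11.1 in cortex. Crh was 59.4 in midbrain, 30.5 in ventral telencephalon, 2.18 in hippocampus and not well above background in cortex, at least 37.3-fold below midbrain. Vip reached 3.49 in midbrain, the single array of 12 on which it was well above background.

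Hippocampus was highest for Tac2 and Cck. Tac2 was 927 there, 51.7 in cortex, 18.9 in ventral telencephalon and 6.61 in midbrain, so that hippocampus exceeded cortex 17.9-fold. Cck was 2072 in hippocampus, 1245 in cortex, 1105 in ventral telencephalon and 953 in midbrain, a narrower range than that of Tac2. In the cultures both genes were lowest in CHIR_8-16, the protocol the labels call hippocampal. Npy was lower in hippocampus than in cortex and lower in CHIR_8-16 than in WiBi_0-11. Iapp was not well above background in any of the 4 tissues (0.38 to 3.12). Its highest tissue value, 3.12 in ventral telencephalon, lay near that array's lowest signal well above background, 2.93. Absence of Iapp RNA from that tissue is therefore not shown.

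**Figure D3:**
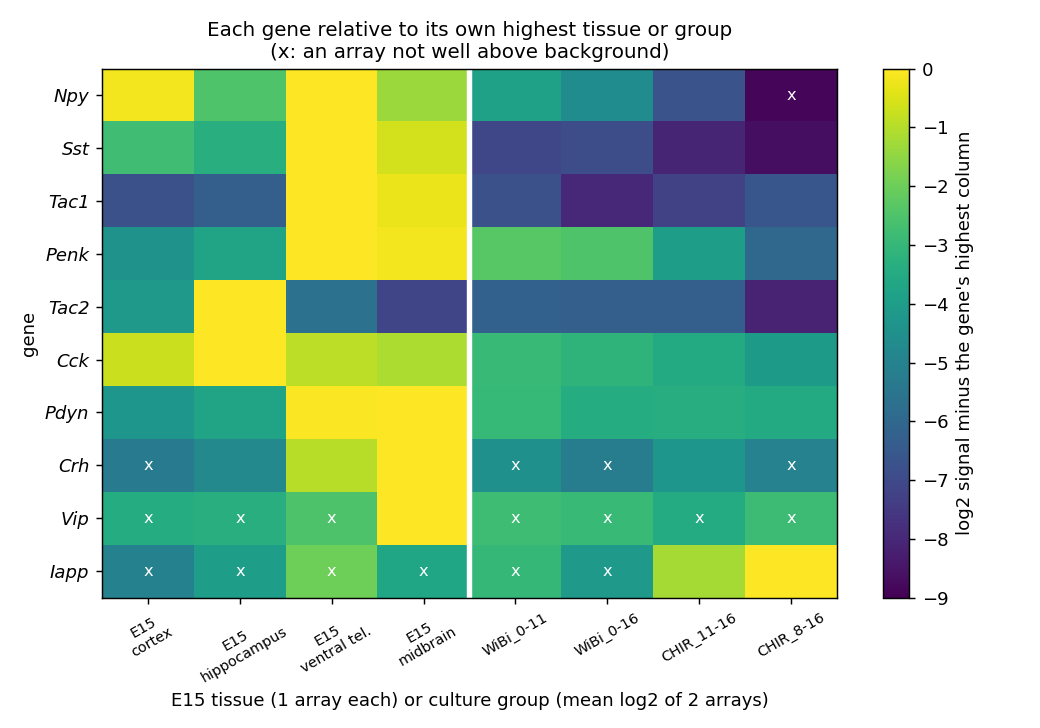
Log2 signal of the 10 genes in the 4 E15 tissues (left) and the 4 culture groups (right, mean of 2 arrays), each minus the highest column of that gene; crosses mark columns with an array not well above background. Tac1, Sst and Penk are brightest in ventral telencephalon and midbrain, Tac2 in hippocampus, and Iapp in CHIR_8-16.

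The cultures held less of nearly every peptide RNA than the tissue where it was most abundant. The highest tissue exceeded the brightest of the 8 culture arrays 58.9-fold for Tac2, 54.0-fold for Sst, 52.7-fold for Tac1, 14.3-fold for Npy, 13.5-fold for Crh, 6.45-fold for Pdyn, 5.29-fold for Cck and 3.86-fold for Penk. Set against single tissues the picture differed: the Penk signal of all 4 inhibitor arrays (89.8 to 184) exceeded those of E15 cortex and hippocampus, and the Pdyn signal of WiBi_0-11 exceeded both as well. The tissues and the cultures lay on different slides, and no array of 1 kind lay with the other, so kind and slide cannot be told apart.

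The receptors of these peptides were split between higher and lower. Of 25 receptor genes listed, 21 were measured, 10 were higher and 11 lower in agonist cultures, with a median log2 of -0.06 (0.00 over all genes); 0 of the 21 passed without the block (0.00783% of all genes) and 2 with it (3.23%). Sstr2, a somatostatin receptor of many forebrain neurons, was higher: 20.6 and 28.6 in CHIR_11-16 and 17.4 and 36.0 in CHIR_8-16, against 10.9 and 9.77 in WiBi_0-11 and 10.6 and 11.2 in WiBi_0-16 (log2 1.22, SE 0.23; adjusted p = 0.083, or 0.039 with the block). This is the direction opposite to Sst itself. Calcr, the calcitonin receptor that with RAMP proteins forms amylin receptors, was lower (log2 -0.78 on each slide; adjusted p = 0.20, or 0.040 with the block), opposite to Iapp. Sstr1 was lower in CHIR_8-16 than in WiBi_0-11 (log2 -1.52, limma adjusted p = 0.48, or 0.066 with the block). The receptor counts include Oprm1 and Tacr2, whose other probes were dim on most or all arrays, as given below with the GABAergic markers.

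The genes that process and store peptides were measured in full, 15 of 15. In agonist cultures 3 were higher and 12 lower, with a median of log2 -0.29, and 0 passed with or without the block. The 2 of largest difference were the prohormone convertase Pcsk1 (log2 -0.69; adjusted p = 0.55, or 0.37 with the block) and the dense-core vesicle protein Ptprn (log2 -0.68; adjusted p = 0.13, or 0.076 with the block). Their summed signal was 32585 to 34648 in WiBi_0-11, 33705 to 34503 in WiBi_0-16, 29494 to 33133 in CHIR_8-16 and 29345 to 30623 in CHIR_11-16. The CHIR_11-16 range lay below those of both inhibitor groups, and the CHIR_8-16 range overlapped that of WiBi_0-11 and lay below that of WiBi_0-16. A single bright probe, that of Cpe, gave 15100 of the 29494 in CHIR_8-16 replicate 1.

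Other neuropeptide genes had mostly higher means with agonist. Of 35 listed, 25 were measured, 21 higher and 4 lower in agonist cultures, with a median of log2 0.32 (0.00 over all genes). With the block 1 of the 25 passed, a share near the 3.23% of all genes. That gene was Grp, gastrin-releasing peptide, at 8.48 and 19.0 in CHIR_8-16 and 8.13 and 11.7 in CHIR_11-16 against 4.51 and 7.38 in WiBi_0-11 and 3.76 and 8.28 in WiBi_0-16 (log2 0.97, SE 0.35; adjusted p = 0.23, or 0.041 with the block). Its E15 signal was 499.5 in hippocampus and 42.9 in cortex. Grp and Tac2 were thus both higher in E15 hippocampus than in cortex and differed in opposite directions in the cultures. Adcyap1, the precursor of PACAP, was 3.28-fold higher in CHIR_8-16 than in WiBi_0-11 (log2 1.71, SE 0.29; adjusted p = 0.23, or 0.079 with the block).

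**Figure D4:**
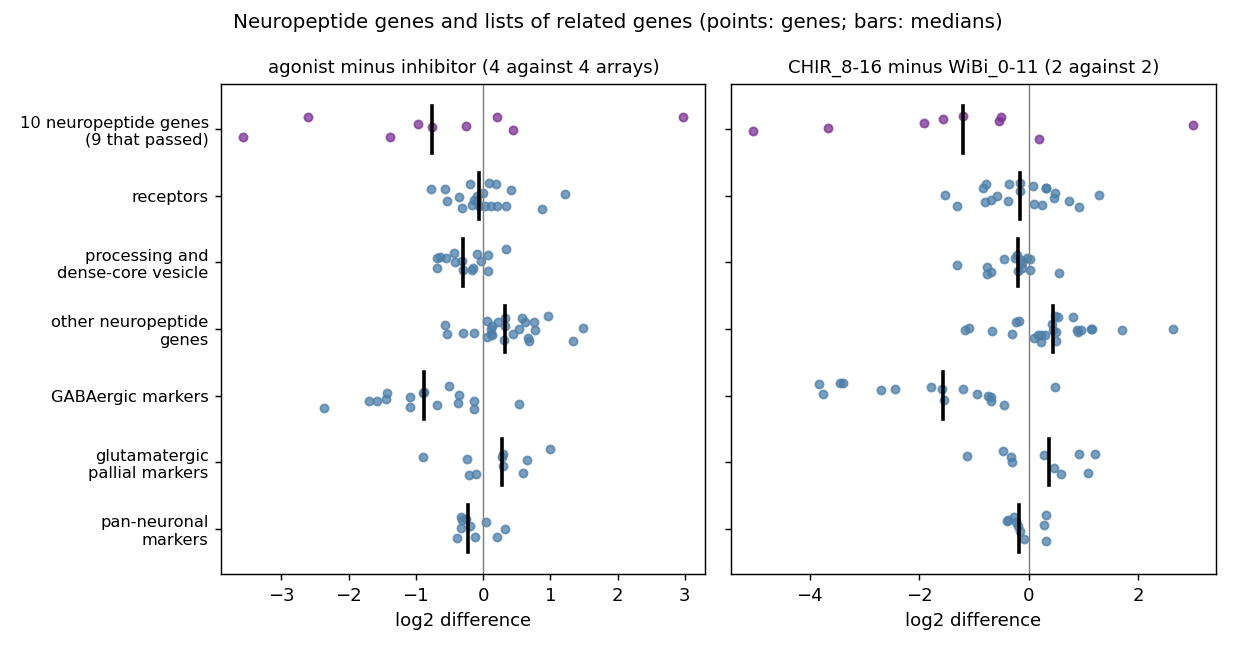
Log2 differences of single genes (points) and their medians (bars) for the 9 neuropeptide genes and 6 lists of related genes, in agonist minus inhibitor cultures (left) and CHIR_8-16 minus WiBi_0-11 (right). The GABAergic markers lie mostly left of 0, with medians of -0.88 and -1.57, and the other neuropeptide genes mostly right of 0, with medians of 0.32 and 0.44.

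Markers of GABAergic neurons of the ventral telencephalon, where many cells with Npy, Sst and Penk arise had mostly lower means with agonist. All 16 were measured, and 15 were lower in agonist cultures (median log2 -0.88, and 0.00 over all genes). With the block 1 of the 16 passed, where 3.23% of all genes did: Calb2, the calcium-binding protein calretinin (log2 -1.08, SE 0.23; adjusted p = 0.096, or 0.040 with the block). In CHIR_8-16 against WiBi_0-11 the median was -1.57 (0.05 over all genes) and 2 passed with the block, where 0.309% of all genes did: Sp8, a transcription factor of interneuron precursors (log2 -3.82, adjusted p = 0.017), and Gad1, a GABA-synthesising enzyme (log2 -2.69, adjusted p = 0.047). Against CHIR_11-16, Sp8 again passed with the block (log2 -4.43, adjusted p = 0.035; 0.00783% of all genes passed). The summed signal of the 16 genes was 4149 to 5872 in CHIR_8-16, below that of the other groups: 8367 to 10217 in WiBi_0-11, 8181 to 10330 in WiBi_0-16 and 8096 to 9844 in CHIR_11-16. Lhx8 was not well above background on either array of WiBi_0-11, WiBi_0-16 or CHIR_8-16. Bright probes carry most of these sums: in CHIR_8-16 replicate 1, Nr2f2 gave 1853 and Lhx6 2237 of 5872. The part of GABAergic cells in the differences of the peptide genes was not tested. The brightest probes of Lhx6 (in this list), Oprm1 and Tacr2 (in the receptor list) followed each other across the 12 arrays (r 0.960 to 0.982 over 3 pairs). The other Oprm1 probe was well above background on 1 of the 12 arrays and the other Tacr2 probe on 0. For Lhx6 a dimmer probe gave log2 -0.79 in CHIR_8-16 minus WiBi_0-11 where the brightest gave 0.48. What these 3 bright probes read was not tested.

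Glutamatergic pallial markers (10 of 10 measured) were split, with 6 higher and 4 lower in agonist cultures. Their median was log2 0.29 (0.02 within slide 2 and 0.27 within slide 3). Neurod1 alone passed with the block, where 3.23% of all genes did (log2 0.99, limma adjusted p = 0.12, or 0.037 with the block). Pan-neuronal markers (10 of 10) had a median of -0.22 with 0 called (the 2 of largest difference were Stmn2, log2 -0.39, and Syt1, -0.33). Of 8 neural crest and mesenchyme genes 7 were measured, 2 higher and 5 lower with agonist (median log2 -1.13). Their summed signal was 795 to 865 in WiBi_0-11, 396 to 474 in WiBi_0-16, 304 to 446 in CHIR_11-16 and 184 to 230 in CHIR_8-16, the order of Npy, with the 2 middle groups overlapping. The collagen genes Col1a1 and Col3a1 gave 353 and 287 of the 795 in WiBi_0-11 replicate 1. Prrx1, a mesenchymal factor, was higher with agonist (log2 1.17, limma adjusted p = 0.083, or 0.045 with the block, where 3.23% of all genes passed). In CHIR_8-16 against WiBi_0-11 Col3a1 was lower (log2 -2.81, adjusted p = 0.045 with the block, where 0.309% of all genes passed). Foxd3 did not pass the filter. Of 8 genes of hypothalamus, a site rich in peptide neurons, 3 were measured and 0 passed. Sim1, a factor of the paraventricular nucleus, where Crh neurons lie, passed the filter only through CHIR_11-16, so no p-value is given for it. It differed by log2 2.24 as measured, with 3 of the 4 inhibitor arrays not well above background. With dim values at the lowest signal well above background it was 1.97-fold higher with agonist. Hmx3 differed by log2 -0.35. Genes of blood, endothelium and microglia (6 of 8) had a median of -0.12 and 0 called, with Aif1 at log2 -0.93 and Ptprc at 0.64. Ptprc was not well above background on any of the 4 inhibitor arrays, so it passed the filter only through agonist groups. With dim values at the lowest signal well above background its difference was 1.27-fold. The part of these cells in the peptide results was not tested. None of the 12 calls of list genes made with the slide block held in every fit that left out 1 array. Those between agonist and inhibitor cultures were lost in each of the 8 fits. These fits called 0 to 3 genes each, against 826 of 25536 with all arrays, so the loss is not particular to the list genes. In the other comparisons a left-out array can leave 1 in a group, so only log2 ranges are given. For CHIR_8-16 minus WiBi_0-11 they were -4.13 to -3.52 for Sp8, -3.11 to -2.27 for Gad1 and -3.23 to -2.38 for Col3a1.

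Across the 8 culture arrays, which share slides and groups, the correlations describe likeness of pattern only. Npy correlated with Penk at r = 0.948 and with Sst at 0.712, and after removing the slide means at 0.950 and 0.8985. Its values with Tac2 (0.840) and Iapp (-0.836) follow in part from the choice of all 3 genes on their agonist difference in these arrays. Sst followed Cck most closely, at 0.925 (0.911 without the slide means), and Tac1 followed none of the others above 0.545. The 2 genes most like each in pattern, by Pearson r over the 8 arrays, were Pigk (0.998) and Rimkla (0.993) for Npy, Nudt11 (0.993) and Clns1a (0.989) for Penk, Allc (0.991) and Sp8 (0.987) for Tac2, and Il17rd (0.984) and Fstl1 (0.982) for Tac1. For Iapp the most alike was Yap1 (0.990), for Crh Zpbp (0.961) and Gm16381 (0.958), and for Pdyn Gm9962 (0.989). The rest, and those of Sst and Cck, are transcripts without a gene symbol. High values are common with 8 arrays: 432 of 25536 genes exceeded 0.9 with Npy, 503 with Penk, 196 with Tac2 and 475 with Iapp.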

How the data were processed

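Cy3-labelled RNA was measured on Agilent mouse arrays of 1 colour (design 028005), per the labels and file headers. Per the file headers, spot intensity values came from Agilent Feature Extraction 10.7.3.1, which subtracted background within each array; the submitters' processing notes name Agilent Feature Extraction 9.1 and limma. The deposited series table holds log2 values of the same arrays, on a common scale by the authors (column medians 6.18 to 6.22); each column correlated best with its own array (r 0.989 to 0.994). Its direction is that of signal, its background treatment is not stated, and it served as an alternative.

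Values here were log2 of the processed signal minus the array's 75th percentile over unmarked non-control spots, averaged over spots of a probe. Of 55681 probes 223 lacked an unmarked spot and 36427 passed the filter (well above background on both arrays of a culture group); the brightest passing probe stood for each of 25536 genes. No spot was saturated (0), and 0 pairs of arrays held identical values. Groups were compared with limma 3.58.1 in R 4.3.3 (lmFit, eBayes), 2-sided, Benjamini-Hochberg over all genes, called at 0.05: 1 mean per culture group, or 1 for the 4 agonist and 1 for the 4 inhibitor arrays. Bounds ("at least") set dim values of the lower group to the lowest signal well above background on that array. They apply to this scaling and background only and are no minimum under the alternatives below.

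Replicate numbers paired the samples by slide: deviations from group means of arrays on 1 slide correlated at 0.578 to 0.667 over 6 pairs of groups, and the median residual SD fell from 0.317 to 0.182 with the block. The scripts were tested on simulated data. Alternatives were other scalings, normexp background (offset 50; the culture files hold median, not mean, spot signals, so medians were used), the deposited table, no filter, averaged probes, a trended prior, fewer samples in the fit and each array left out. The genes and gene lists were chosen with earlier results of these data known. The named genes were the 10 peptide genes; of each list up to 4 called genes, or the 2 of largest difference where none was called; and the 2 genes most correlated with each peptide gene; values of Sstr1, Adcyap1, Gcg, Ins1, Ins2, Nr2f2 and Lhx6 beside other comparisons were picked after they were seen. The values of a marker gene that this rule names are not reported here.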

Additional observations from a re-analysis of the deposited data

Results flagged for a closer look

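Among the 4 agonist arrays, the Tac1 signal of CHIR_8-16 replicate 2 (23.4) was far from the other 3 (7.05, 7.92 and 8.42): the gap to its nearest neighbour on the log2 scale was 0.853 of the whole range, above Dixon's critical value for 4 samples. It was the only such value in 18 groups of 4 arrays. For 4 draws from 1 population chance gives about 1 in 20. Each group here pools 2 culture groups and 2 slides, so that rate need not hold.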

How the results depend on the processing

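Of the 6 peptide genes fitted between agonist and inhibitor cultures and not picked on that contrast (Crh, which passed the filter only through CHIR_11-16, among them), 0 passed in the fit without slide and in the leave-one-out fits (range 0 to 0), 1 with the replicate block, and 2 with the block joined to normexp background, to a trended prior or to 1 mean per group. Over all genes 2 of 25536 passed without slide, 826 with the block, and 1222, 2179 and 1265 with those 3 additions. The leave-one-out fits of this comparison called 0 to 3 genes each. In the other 3 comparisons 0 passed under the alternatives apart from the leave-one-out fits. The block was among these alternatives, so it changed no other call of a peptide gene. For CHIR_8-16 minus CHIR_11-16 this leaves aside Npy, Tac2 and Iapp, which are described there with no test. The agonist difference of Crh reversed with dim values at the floor (-0.21) and in leave-one-out fits (-0.37 to 0.56 without and -0.32 to 0.81 with the block, where it was -0.094 without WiBi_0-11 replicate 2). Other reversals came from leaving out 1 array. In CHIR_8-16 minus WiBi_0-11, Tac1 ran from -0.68 to 1.06 and Crh from -1.23 to 0.15. In WiBi_0-16 minus WiBi_0-11, Sst ran from -0.87 to 1.35, Tac2 from -0.44 to 0.34, Penk from -0.64 to 0.39, Cck from -0.99 to 0.52 and Crh from -2.11 to 0.60. In CHIR_8-16 minus CHIR_11-16, Sst ran from -1.57 to 0.38, Tac1 from -0.21 to 1.52 and Pdyn from -0.54 to 0.35. The cause was not tested. Under median scaling the median of all genes was -0.12 in place of 0.03 in CHIR_8-16 minus CHIR_11-16 and -0.08 in place of 0.05 in CHIR_8-16 minus WiBi_0-11, and it moved the count of genes highest in E15 ventral telencephalon from 4 to 5. Iapp in the agonist comparison was 1.83 with dim values at the floor, and Npy in CHIR_8-16 minus WiBi_0-11 was -4.15 in the deposited table. The alternatives with the block and a further change, and those with dim values at the floor, were chosen after seeing the data. Signal over background limits Vip, Crh, Iapp in inhibitor cultures and Npy in CHIR_8-16.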
